A study of Mus musculus with 6 samples.

Results

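The 10 genes described here are the Notch ligands *Jag1*, *Jag2*, *Dll1* and *Dll4*, the receptors *Notch1*, *Notch2* and *Notch3*, and the target genes *Hes1*, *Hey1* and *Heyl*. They were chosen by gene symbol, and all 10 were found among the 12436 genes listed for every cell. Single-cell RNA sequencing had been done on tibialis anterior muscle (TAM) of male mice aged 3 to 5 months, with 3 mice pooled in each of 6 libraries. Control mice ate a matched diet, and hypothyroid mice ate an iodine-deficient diet with 0.15% propylthiouracil (PTU), a drug that blocks thyroid hormone synthesis, for 3 weeks before injury and until collection. Muscle was taken uninjured (day 0) or 5 or 14 days after cardiotoxin (CTX, 50 µg/ml), a toxin that destroys myofibers, was injected into the right TAM. All groups were on the B6;129 background and carried the Fucci2aR cell cycle reporter at the ROSA26 locus, allele Gt(ROSA)26Sor<tm1(Fucci2aR)Jkn, and per the study's methods the mice used for transcriptomics were negative for Cre. The labels give the day as the batch, so day and batch cannot be told apart.

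Notch is a signal between touching cells. A ligand of the Jagged or Delta family on 1 cell binds a Notch receptor on its neighbour, the receptor is cut, and its inner part moves to the nucleus, where it joins the DNA-binding protein RBPJ and switches on repressors such as the HES and HEY proteins. In muscle, Notch is known for keeping satellite cells, the muscle stem cells, quiescent. In vessels, DLL4, JAG1 and NOTCH1 shape arterial and sprouting endothelium, and NOTCH3 maintains the mural cells (pericytes and smooth muscle) around it.

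The members lie on 6 chromosomes (GRCm39, positions as the files give them). The ligand genes are *Jag1* on chromosome 2 (136923376 to 136958565), *Jag2* on chromosome 12 (112871439 to 112893397), *Dll1* on chromosome 17 (15587616 to 15597135) and *Dll4* on chromosome 2 (119156265 to 119166444). The receptor genes are *Notch1* on chromosome 2 (26347915 to 26406676), *Notch2* on chromosome 3 (97920843 to 98057678) and *Notch3* on chromosome 17 (32339794 to 32385827). The target genes are *Hes1* on chromosome 16 (29883202 to 29886615), *Hey1* on chromosome 3 (8728419 to 8732317) and *Heyl* on chromosome 4 (123127349 to 123143669). All 10 are annotated as protein coding.

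The target genes are the members on which the nuclear complex acts, so the 250 bases before the start sites of *Hes1* and *Heyl* are shown, 5′ to 3′ on the strand of the gene. They were read from the GRCm39 genome before the start of the GENCODE M39 canonical transcript. *Hes1* is shown from the plus strand at chr16:29883877-29884126 and *Heyl* from the plus strand at chr4:123127099-123127348. The *Hes1* window lies inside the gene span given above, because it precedes the canonical transcript start (29884127) and not the first base of that span. Capitals mark TGGGAA, the core letters of the RBPJ site, or its complement TTCCCA on the opposite strand.
Hes1: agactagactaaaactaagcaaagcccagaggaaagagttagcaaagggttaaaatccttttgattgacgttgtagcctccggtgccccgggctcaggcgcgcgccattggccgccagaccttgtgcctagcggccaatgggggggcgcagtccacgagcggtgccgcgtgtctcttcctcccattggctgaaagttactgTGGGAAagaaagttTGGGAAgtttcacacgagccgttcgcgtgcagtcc
Heyl: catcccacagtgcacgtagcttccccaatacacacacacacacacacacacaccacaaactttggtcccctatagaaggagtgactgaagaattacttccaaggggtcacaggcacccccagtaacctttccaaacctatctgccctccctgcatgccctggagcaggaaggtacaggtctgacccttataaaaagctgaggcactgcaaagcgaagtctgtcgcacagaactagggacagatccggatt
*Hes1* held 2 matches on its own strand, at 49 to 44 and at 35 to 30 bases before the start. *Heyl* held 0 on either strand. Of 21770 promoters of protein-coding genes cut in the same way, 22.7% held TGGGAA on either strand. The longer letters GTGGGAA, which include the shorter ones, were in 5.48% of promoters, and 1 of the 2 *Hes1* matches was of this kind. A match describes letters only and is not a measured binding site.

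Of 20269 cell columns in the files, 9062 lie after the first alphabetical run of barcodes of their file, some hold cells of other libraries, and they were set aside. In the 11207 cells kept, libraries held 2283723 to 23496464 unique molecular identifiers (UMIs, counts of captured RNA molecules), with medians of 3634 to 8055 UMIs per cell, and at most 3 barcodes were shared between libraries. Cells were sorted into classes by their own UMIs of marker genes, none of which is a member. This gave 5219 fibro-adipogenic progenitors (FAPs, the connective tissue cells of muscle), 1148 endothelial, 195 mural, 329 myogenic, 249 myocyte, 127 glial, 1281 myeloid, 959 T or NK and 190 B cells, and 1471 cells were left ungated. The shares of marker genes describe the gate and are no separate check of the names, since the same markers set the classes. *Cdh5* was in 86.4% of endothelial and 2.77% of other gated cells and *Rgs5* in 94.9% against 7.21% for mural cells. The myogenic marker *Pax7* was in 35.0% against 0.255%. Sarcomere RNA was found widely, with *Acta1* in 75.9% of gated cells outside the myocyte class, so low levels of any gene outside its main class may include free RNA, which was not tested. Levels below are CPM, UMIs of the gene per 1000000 UMIs, with the UMIs summed over a class. Intervals are 95% Poisson intervals for a level and exact binomial intervals for a ratio, and both cover counting error only. A diet at a day is 1 library, so no p-value was computed between diets or days. A ratio was read where both pools held at least 20 cells and at least 20 UMIs of the gene together, and past 2-fold means at least 2 times higher or lower.

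The ligands split by cell class. *Jag2*, *Dll1* and *Dll4* were found mainly in endothelial cells, while *Jag1* was shared by mural, endothelial, glial, FAP and myeloid cells. Over all libraries, *Dll4*, the Delta ligand of sprouting vessels, stood at 79.4 CPM in endothelial cells (374 UMIs) and at 0.338 CPM in FAPs. It was at 0 in myogenic, T or NK and B cells, where the floor of 3 UMIs corresponds to 0.759, 0.775 and 7.42 CPM. *Jag2* stood at 53.7 CPM in endothelial cells, 6.07 in myogenic cells and 0.722 in FAPs, and it was at 0 in mural cells with a floor of 5.24 CPM. *Dll1* stood at 41.8 CPM in endothelial cells, 12.7 in myogenic cells and 1.11 in FAPs. *Jag1* stood at 260 CPM in mural cells (220 to 306), 94.5 in endothelial cells (85.9 to 104), 86.3 in glial cells, 69.3 in FAPs, 55.1 in myeloid cells, 37.2 in myogenic cells and 5.69 in T or NK cells. For *Jag1* the lowest mural library with 20 cells lay above the highest endothelial one, and the neighbours from endothelial down to FAP cells overlapped between libraries. Among libraries with at least 20 cells of a class, the lowest endothelial one lay above the highest of the class that came next for *Jag2* and *Dll1*. For *Dll4* 1 mural library with 30 cells and 5 UMIs reached 80.6 CPM, within the endothelial range of 43.9 to 178.

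The receptors were spread over different classes. *Notch1* stood at 279 CPM in endothelial cells, 132 in glial cells, 131 in mural cells, 83.0 in T or NK cells and 26.6 in FAPs. *Notch2* was low in endothelial cells, at 12.1 CPM, and stood at 173 in B cells, 89.6 in FAPs, 87.1 in myeloid cells, 72.9 in myogenic cells and 43.2 in T or NK cells. *Notch3* stood at 578 CPM in mural cells, 81.2 in myogenic cells, 43.7 in endothelial cells and 5.44 in FAPs. Among libraries with at least 20 cells of a class, mural and myogenic cells did not overlap in *Notch3*, nor did B cells and FAPs in *Notch2*. The *Notch2* gap was narrow, with the lowest B cell library at 128 CPM and the highest FAP library at 117 CPM. Only 3 B cell libraries held 20 cells, none of them from day 14. For *Notch1*, endothelial and mural libraries overlapped. *Notch4*, the other receptor gene, stood at 52.9 CPM in endothelial cells and at 6.99 or lower in every other class.

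Each target gene had its own classes. *Hes1* was the most widespread, at 550 CPM in mural cells, 306 in endothelial cells, 134 in glial cells, 129 in myogenic cells and 87.8 in FAPs, against 3.88 in T or NK cells and 9.25 in myeloid cells. Myogenic and FAP libraries overlapped in *Hes1*, with library medians of 88.39 and 94.85 CPM. *Hey1* stood at 105 CPM in endothelial cells, 11.1 in myogenic cells and 6.99 in mural cells. *Heyl* stood at 119 CPM in mural cells, 55.9 in myogenic cells, 8.07 in endothelial cells and 3.38 in FAPs, and it was at 0 in T or NK, B and glial cells. A UMI of *Hes1* was seen in 29.3% of FAPs and in 1.25% of T or NK cells, whose median depths were 6780 and 3101 UMIs. A UMI of *Heyl* was seen in 28.3% of myogenic cells with a median depth of 9222 UMIs. Among libraries with at least 20 cells of a class, *Hes1* mural libraries lay above endothelial ones and *Hey1* endothelial libraries above glial ones. *Heyl* mural and myogenic libraries overlapped. Mural, glial and B cells had 3 such libraries each, and smaller pools were not read for this order.

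**Figure D1:**
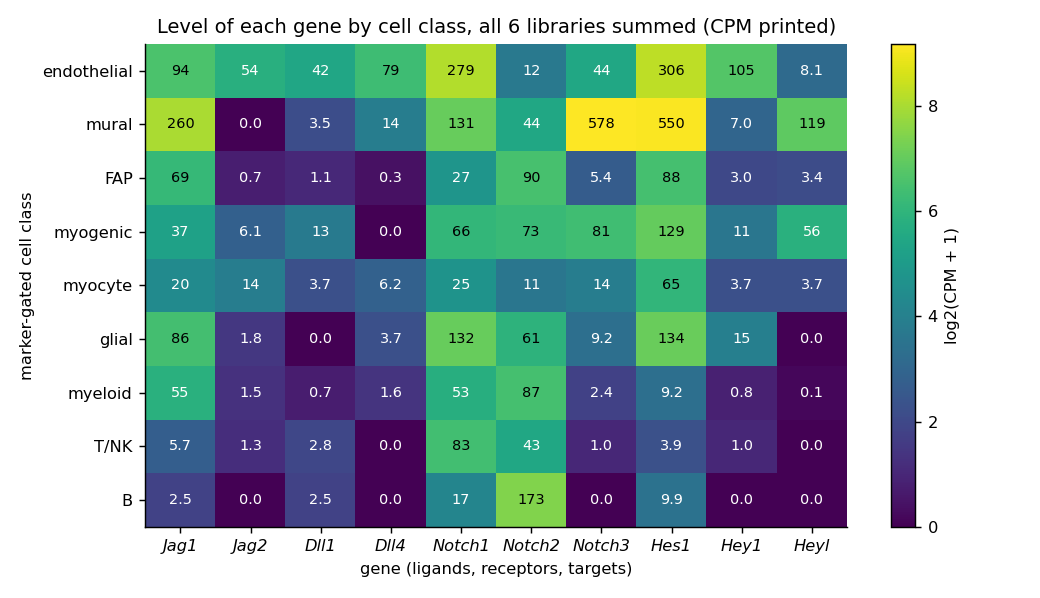
Level of each gene (columns: ligands, receptors, targets) in each marker-gated cell class (rows), with the 6 libraries summed. Numbers are CPM and the colour is log2(CPM + 1). *Dll4*, *Jag2*, *Dll1* and *Hey1* peak in endothelial cells, *Notch3* and *Heyl* in mural cells and then myogenic cells, and *Notch2* in B cells.

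FAPs, endothelial cells and myogenic cells held at least 20 cells in all 6 libraries, so each member was compared between them with the library as the pair (exact sign-flip permutation test, two-sided, on log2(CPM + 1)). In 16 of 30 comparisons all 6 libraries had the same direction and reached an exact permutation p of 0.0313, the smallest that 6 pairs allow. The same count was not made over all 12436 genes. The 16 of 30 therefore has no background beside it and says nothing about Notch genes as a set. After Benjamini-Hochberg adjustment over the 30 tests these stood at adjusted p = 0.0586 (exact permutation test), so 0 of 30 passed 0.05, against 16 before adjustment. Endothelial cells were above FAPs in 6 of 6 libraries for *Dll4* with FAP minus endothelial differences of −6.22 ± 0.84 on the log2 scale (SD, n = 6 libraries). The same differences were −4.78 ± 0.56 for *Jag2*, −4.53 ± 0.75 for *Dll1*, −4.43 ± 1.0 for *Hey1*, −3.68 ± 0.84 for *Notch1* and −1.04 ± 0.41 for *Jag1*, each with endothelial cells higher in 6 of 6 libraries. FAPs were above endothelial cells in 6 of 6 libraries for *Notch2*, by 2.45 ± 0.56. Myogenic cells were above FAPs in 6 of 6 libraries for *Heyl* and *Notch3*, with FAP minus myogenic differences of −3.78 ± 0.74 and −3.52 ± 0.37. Endothelial cells were above myogenic cells in 6 of 6 libraries for *Jag1*, *Jag2*, *Dll1*, *Dll4*, *Notch1* and *Hey1*, by 1.76 ± 0.95 for *Jag1* up to 6.52 ± 0.80 for *Dll4*, and below them for *Heyl*, with a difference of −3.27 ± 2.42. *Hes1* was higher in endothelial cells than in FAPs in 5 of 6 libraries, with a FAP minus endothelial difference of −1.41 ± 1.06 (exact permutation p = 0.0625, n = 6). Its exception was the uninjured hypothyroid library.

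Within endothelial cells, *Jag1*, *Jag2*, *Dll4* and *Hey1*, pooled over the libraries, were highest in the cells with arterial markers. Marker lists for vessel type split the class into 128 arterial, 933 capillary and 81 venous cells. *Jag1* stood at 287 CPM in arterial cells (244 to 336), 71.4 in capillary cells (63.1 to 80.4) and 54.4 in venous cells (33.3 to 84.1). *Dll4* stood at 183 CPM in arterial cells (148 to 223), 71.1 in capillary cells (62.9 to 80.1) and 13.6 in venous cells (4.42 to 31.8). *Hey1* followed the same order, at 207 (170 to 249), 98.8 (89.0 to 109) and 27.2 CPM (13.1 to 50.1), and so did *Jag2* at 103, 51.1 and 10.9 CPM. These levels pool all libraries. Arterial cells were above capillary cells in 6 of 6 libraries for *Hey1*, in 5 of 6 for *Jag1* and in 4 of 6 for *Jag2* and *Dll4*. The exceptions were the uninjured control library for *Jag1* (107.9 and 113.8 CPM) and *Jag2* (107.9 and 126.5 CPM), the hypothyroid day 14 library for *Jag2* and *Dll4*, and the hypothyroid day 5 library for *Dll4*, and each hypothyroid library held 4 to 6 arterial cells. *Dll1* had no 1 order, since venous cells were highest in the uninjured control library (327 CPM, 12 UMIs in 9 cells, against 71.9 CPM in arterial cells) and arterial cells in the control day 5 library (79.8 against 56.8 CPM). Pooled over the libraries, *Notch1* and *Hes1* varied little, at 332, 276 and 240 CPM and at 341, 299 and 332 CPM. Their intervals overlapped between arterial and venous cells. Single libraries differed. *Hes1* stood at 408, 190 and 136 CPM in the uninjured control library, the last on 5 UMIs. It stood at 160, 200 and 334 CPM in the control day 5 library. *Notch1* stood at 324, 417 and 191 CPM and at 511, 266 and 362 CPM in these libraries. Arterial cells were above capillary cells in 4 of 6 libraries for *Notch1* and in 3 of 6 for *Hes1*. The vessel types were taken over all libraries, 81 venous cells held 5 *Dll4* UMIs, and no test was run between them.

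Endothelial *Dll4* was highest in uninjured muscle with either diet, and endothelial *Hey1* at day 14 was lower in the hypothyroid library. *Dll4* stood at 178, 83.2 and 78.7 CPM in control libraries at days 0, 5 and 14 and at 175, 43.9 and 61.8 CPM in hypothyroid ones. Both uninjured libraries lay above the other 4, with day 5 over day 0 ratios of 0.468 (0.309 to 0.721) in control and 0.25 (0.0983 to 0.636) in hypothyroid muscle. *Jag1* stood at 88.9, 151 and 80.9 CPM in control and at 128, 175 and 58.9 CPM in hypothyroid libraries, so day 5 was the highest day in each diet. *Jag2* stood at 104, 27.3 and 65.2 CPM in control and at 47.8, 27.9 and 46.6 CPM in hypothyroid libraries, where day 0 rests on 3 UMIs. *Dll1* stood at 104, 34.5 and 39.6 CPM in control and at 31.9, 63.8 and 36.1 CPM in hypothyroid libraries, where day 0 rests on 2 UMIs. Arterial cells made up 25.5% of endothelial cells in the uninjured control library (17.2% to 35.3%) and 12.8% at day 5 (7.63% to 19.7%), and in control capillary cells *Dll4* stood at 202, 67.7 and 74.0 CPM at days 0, 5 and 14. In control arterial cells it stood at 240, 415 and 136 CPM, so day 5 was the highest there. In the uninjured hypothyroid library 8 of the 11 *Dll4* UMIs came from 6 arterial cells, and its 21 capillary cells stood at 71.3 CPM on 3 UMIs.

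*Notch1*, the main endothelial receptor, stood at 336, 300 and 266 CPM in control libraries and at 510, 223 and 280 CPM in hypothyroid ones. The uninjured hypothyroid library was the highest of the 6 and held 27 endothelial cells and 32 *Notch1* UMIs, and the other 5 lay between 223 and 336 CPM. *Hes1* stood at 276, 219 and 319 CPM in control and at 112, 311 and 365 CPM in hypothyroid libraries. The uninjured hypothyroid value rests on 7 UMIs, and its ratio to control was 0.404 (0.155 to 0.888), but 1.22 when levels were averaged over cells in place of summed. Immediate early genes, which rise when tissue is dissociated, moved too. The 9 listed genes summed to 15870 CPM in the uninjured control and 7782 CPM in the uninjured hypothyroid endothelial cells, with *Fos* at 3091 and 1403 CPM and 0 of the 9 at 0 in either, and their part was not tested.

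*Hey1* stood at 88.9, 117 and 130 CPM in control endothelial cells and at 31.9, 108 and 48.5 CPM in hypothyroid ones. At day 14 the hypothyroid library was at 0.372 times the control one (0.271 to 0.502, 51 against 300 UMIs). Arterial cells made up 11.1% of endothelial cells in the control (8.78% to 13.9%) and 2.63% in the hypothyroid library (0.972% to 5.64%) at that day. Within capillary cells alone the ratio was 0.404 (0.291 to 0.553, 516 control and 218 hypothyroid cells). The immediate early sum was 10020 and 10130 CPM in these libraries. In the same capillary cells *Dll4* stood at 74.1 and 62.6 CPM, a ratio of 0.845 (0.617 to 1.15), and *Jag1* at 56.6 and 53.6 CPM, a ratio of 0.947 (0.669 to 1.33), so the intervals of both ligands included 1. Whether the difference belongs to the diet or to these libraries cannot be told apart with 1 library each. *Notch3* in the endothelial class stood at 83.9, 22.6 and 54.3 CPM in control and at 0, 55.8 and 29.5 CPM in hypothyroid libraries. The 9 mural markers in the same cells summed to 1308, 662 and 2534 CPM in control and to 63.8, 1954 and 1622 CPM in hypothyroid libraries, with 1 of 9 seen in the uninjured hypothyroid library and 5 to 9 in the others, and their part in *Notch3* was not tested.

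Past 2-fold between diets were 4 of 7 members tested in endothelial cells at day 0, where 29.7% of all genes tested were, 1 of 8 at day 5 against 16.6%, and 2 of 10 at day 14 against 9.94%. Of the 4 at day 0, all lower in hypothyroid muscle, *Hes1* alone had an interval that left out 1, and its direction turned with means over cells. The other member at day 14 was *Heyl*, with 24 UMIs in control and 2 in hypothyroid cells, and the member at day 5 was *Notch3*. From day 0 to day 5, 4 of 8 members passed 2-fold in control (background 31.7%), all lower and 3 of them still so relative to the size factor, and 4 of 5 in hypothyroid cells (background 32.2%), with 2 in each direction. From day 5 to day 14, 3 of 10 passed in control (background 19.7%), all higher, and 2 of 9 in hypothyroid cells (background 18.5%), both lower. The day 5 libraries stand in both of these comparisons.

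**Figure D2:**
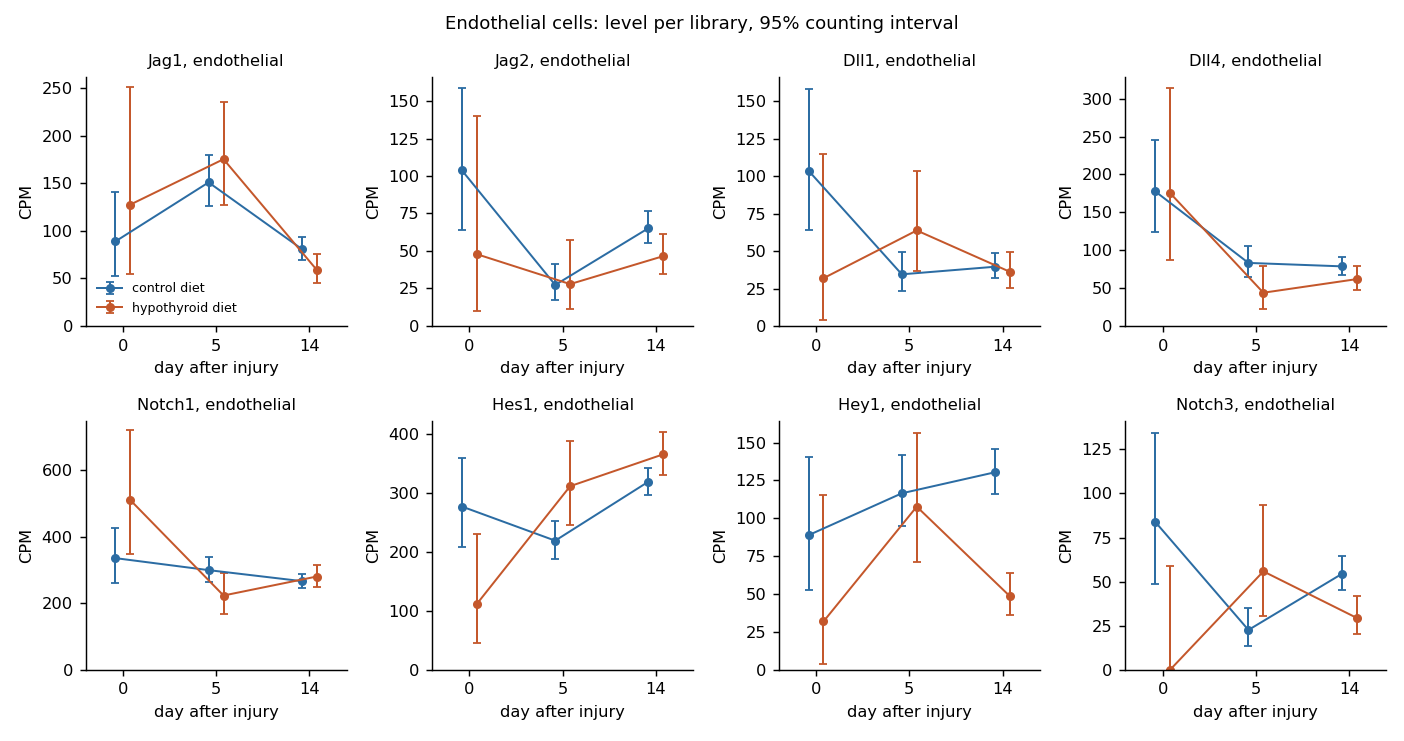
Level (CPM, y axes from 0) of 8 genes in endothelial cells by day after injury and diet. Points are single libraries, bars are 95% counting intervals and lines join days of 1 diet. Hypothyroid *Hey1* at day 14 (48.5 CPM) lies below control (130 CPM), and *Dll4* is highest at day 0 in both diets.

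Mural cells, 195 in all, carried the highest *Notch3*, *Heyl*, *Hes1* and *Jag1* levels. Only 3 libraries held 20 or more of them. In these, control day 5, control day 14 and hypothyroid day 14, *Notch3* stood at 638, 599 and 419 CPM, *Hes1* at 479, 613 and 871 CPM and *Heyl* at 140, 125 and 64.5 CPM. *Jag1* stood at 359, 220 and 274 CPM. Pooled over the libraries, smooth muscle marked cells (65) were above pericyte marked cells (130) in *Notch3*, at 666 (579 to 761) against 469 CPM (389 to 561), and in *Hes1*, at 631 (547 to 725) against 449 CPM (371 to 540). The order turned for *Notch3* in uninjured control (486 against 501 CPM). It also turned for *Hes1* in hypothyroid muscle at day 0 (700 against 1033 CPM) and day 5 (263 against 632 CPM), on 1 to 8 UMIs. Control day 14 gave 120 of the 212 *Notch3* UMIs of smooth muscle marked cells, and hypothyroid day 14 held 1 such cell. *Jag1* stood at 305 CPM (247 to 372) in smooth muscle and 205 CPM (153 to 269) in pericyte marked cells, and these intervals overlapped. At day 14, 1 of 5 members passed 2-fold between diets, where 30.9% of all genes tested did. It was *Notch1*, at 84.6 CPM in control against 258 CPM in hypothyroid cells (ratio 3.05, 1.52 to 5.94, 25 and 16 UMIs). Endothelial markers in these cells summed to 491 and 1452 CPM, with 8 of 8 seen in each, the pericyte share was 63.1% and 96.7%, and the immediate early sum was 14570 and 24950 CPM. Their part in *Notch1* was not tested. From day 5 to day 14 in control mural cells 1 of 5 members passed 2-fold (background 22.2%), again *Notch1*, at 0.499 (0.259 to 0.985).

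FAPs, the largest class, expressed *Jag1*, *Notch2*, *Hes1* and *Notch1*, and *Jag1* and *Notch1* were highest at day 5 in both diets. *Jag1* stood at 37.4, 83.0 and 33.4 CPM in control FAPs at days 0, 5 and 14 and at 42.2, 134 and 29.6 CPM in hypothyroid FAPs. The day 5 libraries lay above all others, with day 5 over day 0 ratios of 2.22 (1.87 to 2.64) in control and 3.18 (2.50 to 4.11) in hypothyroid FAPs. Day 14 over day 5 ratios were 0.403 (0.351 to 0.462) and 0.221 (0.192 to 0.252). *Notch1* stood at 15.7, 40.5 and 15.8 CPM in control and at 18, 36.4 and 22.8 CPM in hypothyroid FAPs, with day 5 over day 0 ratios of 2.58 (1.99 to 3.38) and 2.02 (1.39 to 3.05). FAPs were also deepest at day 5, with medians of 12218 and 13616 UMIs per cell against 4346 to 9209 in the other libraries. When each cell was thinned to 1500 UMIs, a *Jag1* UMI was seen in 5.66%, 9.74% and 5.74% of control FAPs and in 6.04%, 14.9% and 3.75% of hypothyroid FAPs. Before thinning these shares were 16.0%, 40.8% and 13.7%, and 13.9%, 51.6% and 15.4%. Thinning left out 23 to 223 cells of a library. In T or NK cells, a class with little *Jag1*, at most 1.89% had a *Jag1* UMI after thinning. Thinned shares with a *Notch1* UMI were 3.47%, 5.46% and 2.0% of control FAPs and 3.36%, 4.28% and 3.3% of hypothyroid FAPs. Intervals of days 0 and 5 overlapped in control (2.3% to 5.01% and 3.49% to 8.08%). In hypothyroid FAPs those of all days overlapped (1.62% to 6.08%, 3.0% to 5.91% and 2.22% to 4.7%).

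*Notch2* had the opposite course in control FAPs. It stood at 103, 44.9 and 90.5 CPM in control and at 93.7, 86.5 and 117 CPM in hypothyroid FAPs, so that the control day 5 library was lowest and stood apart from the other 5. The day 5 over day 0 ratio was 0.436 (0.375 to 0.506) in control and 0.924 (0.779 to 1.1) in hypothyroid FAPs. At day 5 hypothyroid FAPs had 1.93 times the control level of *Notch2* (1.69 to 2.21) and 1.62 times that of *Jag1* (1.46 to 1.79). The median-of-ratios size factor, a typical gene's shift in that comparison, was −0.36 on the log2 scale, and relative to it the ratios were 2.46 and 2.07, both past 2-fold. Thinned shares of FAPs with a *Notch2* UMI were 7.13% in control (4.86% to 10.0%) and 13.3% in hypothyroid libraries (11.1% to 15.9%) at day 5.

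*Hes1* stood at 106, 87.2 and 75.3 CPM in control FAPs and at 159, 102 and 57.8 CPM in hypothyroid ones, highest in uninjured muscle in each diet. Hypothyroid over control ratios were 1.5 (1.29 to 1.75) at day 0, 1.18 (1.06 to 1.30) at day 5 and 0.769 (0.685 to 0.861) at day 14, all within 2-fold. *Fos* in the same FAPs stood at 1335, 905 and 1470 CPM in control and at 2147, 864 and 715 CPM in hypothyroid libraries, and the immediate early sum ran from 3298 CPM in the hypothyroid day 14 library to 9919 CPM in the hypothyroid uninjured one. The hypothyroid uninjured library had the highest and the hypothyroid day 14 library the lowest value of *Hes1*, *Fos* and the sum, and the part of these genes was not tested. *Hey1* and *Heyl* were rare in FAPs, at 0.827 to 6.49 CPM and 2.20 to 7.30 CPM. Both were highest in the control day 5 library, where hypothyroid over control ratios were 0.291 (0.168 to 0.494, 24 against 40 UMIs) and 0.302 (0.181 to 0.494, 28 against 45 UMIs). *Jag2*, *Dll1*, *Dll4* and *Notch3* stayed at 7.44 CPM or lower in every FAP library.

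Past 2-fold between diets in FAPs were 1 of 5 members at day 0 (7.86% of all genes tested), 2 of 8 at day 5 (13.8%) and 1 of 8 at day 14 (9.37%). The member at day 0 was *Notch3*, on 16 and 12 UMIs with an interval that included 1, and the member at day 14 was *Jag2*, on 18 and 3 UMIs. Between days, 6 of 7 members passed 2-fold from day 0 to day 5 in control FAPs (background 32.5%), 5 of them higher, and 2 of 7 did in hypothyroid FAPs (background 38.9%), both higher. From day 5 to day 14, 5 of 9 passed in control (background 25.1%), 2 higher and 3 lower, and 1 of 7 in hypothyroid FAPs (background 26.6%), namely *Jag1*, which was lower. The difference between the diets in these counts was not tested.

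**Figure D3:**
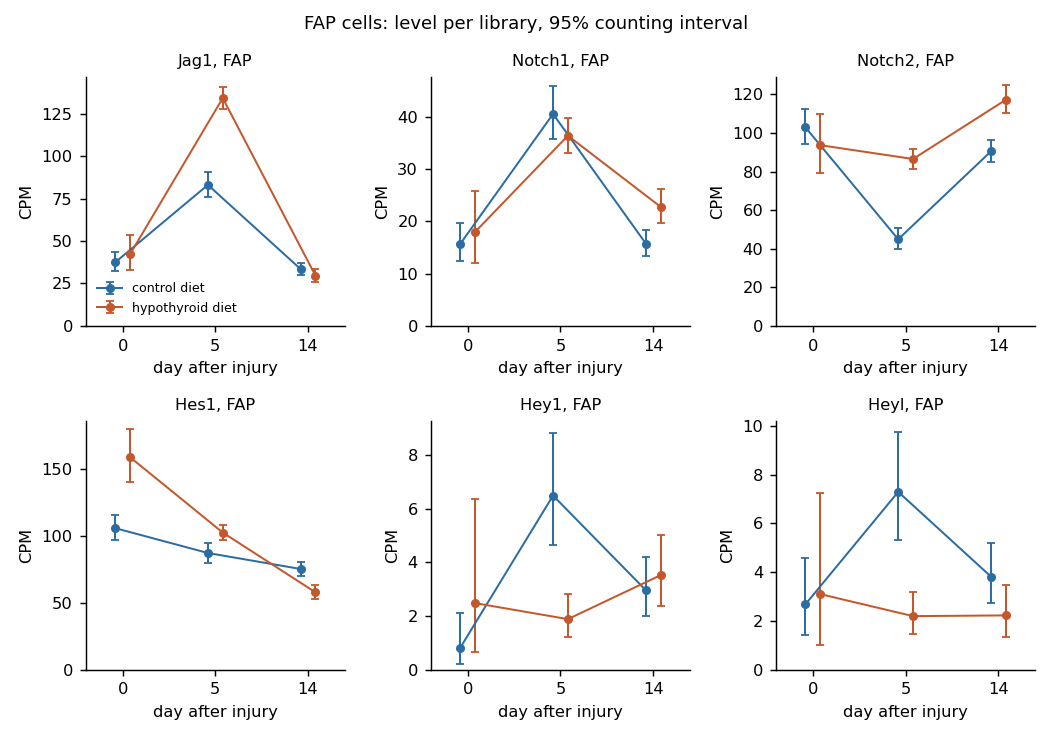
Level (CPM, y axes from 0) of 6 genes in FAPs by day after injury and diet. Points are single libraries and bars are 95% counting intervals. *Jag1* and *Notch1* peak at day 5 in both diets, while *Notch2* dips at day 5 in control FAPs (44.9 CPM) and not in hypothyroid FAPs (86.5 CPM).

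Myogenic cells were second to mural cells in *Notch3* and *Heyl*, and their *Heyl* at day 5 was lower in the hypothyroid library. Levels of uninjured and day 14 cells rest on 21 to 40 cells a library. *Heyl* stood at 65.8, 107 and 29.7 CPM in control and at 121, 33.4 and 43.1 CPM in hypothyroid myogenic cells, so the groups crossed between days. At day 5 the hypothyroid library was at 0.312 times the control one (0.229 to 0.422, 75 against 108 UMIs), and at 0.397 relative to the size factor. Within cells with stem markers the ratio was 0.245 (0.168 to 0.357, 46 control and 76 hypothyroid cells), and within cycling cells it was 0.242 (0.132 to 0.430, 22 and 45 cells). Markers of mural cells, the other class with high *Heyl*, summed to 39.7 and 38.2 CPM in these day 5 myogenic pools, with 7 and 5 of 9 seen. Their part in *Heyl* was not tested. After thinning, a *Heyl* UMI was seen in 19.2% of control (11.2% to 29.7%) and 9.77% of hypothyroid cells (5.31% to 16.1%), and these intervals overlapped.

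*Notch3* stood at 47.0, 110 and 74.3 CPM in control and at 121, 72.9 and 46.7 CPM in hypothyroid myogenic cells. The day 5 ratio was 0.663 (0.518 to 0.851), and relative to the size factor of −0.35 on the log2 scale it was 0.844. Within cells with stem markers the ratio was 0.505 (0.362 to 0.708), and within cycling cells it was 0.592 (0.397 to 0.888). *Notch1* stood at 65.8, 96.2 and 9.91 CPM in control and at 46.7, 57.8 and 68.3 CPM in hypothyroid libraries, where the control day 14 value rests on 2 UMIs in 40 cells. *Hes1* stood at 9.39, 119 and 19.8 CPM in control and at 112, 157 and 64.7 CPM in hypothyroid libraries, where the control values at days 0 and 14 rest on 1 and 4 UMIs. Day 5 was the highest day in both diets for *Hes1*, and the hypothyroid library was the higher one at each day. Within cells with stem markers at day 5 *Hes1* stood at 152 CPM in control against 121 CPM in hypothyroid cells, a ratio of 0.797 (0.581 to 1.11). In cycling cells the ratio was 1.37 (0.996 to 1.90), and 12 differentiating cells in each library stood at 52.9 and 421 CPM. The ratio of the whole class was 1.32 (1.07 to 1.64). *Fos* in the class stood at 498, 328 and 243 CPM in control and at 1251, 520 and 643 CPM in hypothyroid libraries, also higher in hypothyroid muscle at each day, and its part was not tested. *Notch2* stood at 9.39, 73.4 and 54.5 CPM in control and at 46.7, 80.5 and 57.5 CPM in hypothyroid myogenic cells. *Dll1*, the Delta ligand of this class, stood at 16.8 and 12.4 CPM at day 5 in control and hypothyroid cells and rested on 3 UMIs or fewer elsewhere. *Dll4* was at 0 in all 6 libraries.

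Pooled over the libraries, *Heyl* and *Notch3* were lower in the myogenic cells that had begun to differentiate than in cells with stem markers. Over all libraries, *Heyl* stood at 78.6 CPM in 223 cells with stem markers (66.9 to 91.8), 36.8 in 71 cycling cells (27.7 to 47.9) and 14.1 in 34 differentiating cells (5.16 to 30.6). *Notch3* stood at 98.4 CPM (85.2 to 113), 73.6 CPM (60.5 to 88.7) and 25.8 CPM (12.9 to 46.1). In the same order at day 5, *Heyl* stood at 186, 82.4 and 14.4 CPM in control and at 45.6, 19.9 and 24.8 CPM in hypothyroid cells. *Notch3* at that day stood at 165, 106 and 19.2 CPM and at 83.2, 62.7 and 57.8 CPM. The differentiating values rest on 3 *Heyl* UMIs in each library and on 4 and 7 *Notch3* UMIs. *Notch1* and *Hes1* differed between the day 5 libraries. From stem to cycling to differentiating cells, *Hes1* stood at 152, 122 and 52.9 CPM in control and at 121, 167 and 421 CPM in hypothyroid cells, and *Notch1* at 114, 104 and 48.1 CPM and at 63.5, 46.8 and 99.0 CPM. The differentiating cells were 12 in each library, with 11 and 51 *Hes1* UMIs and 10 and 12 *Notch1* UMIs. All 71 cycling cells came from days 5 and 14, so state and day are mixed in these values.

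Past 2-fold between diets in myogenic cells were 0 of 1 member at day 0 (15.6% of all genes tested), 1 of 9 at day 5 (16.2%) and 2 of 4 at day 14 (14.7%). The members at day 14 were *Notch1*, with a ratio of 6.89 (1.66 to 61.0), and *Hes1*, with a ratio of 3.26 (1.08 to 13.3), both on the low control counts above, with *Fos* at 2.65 times control in the same cells. From day 0 to day 5, 4 of 6 passed in control (background 55.2%), all higher, and 2 of 8 in hypothyroid cells (background 52.8%), both lower, namely *Jag1* and *Heyl*. From day 5 to day 14, 4 of 7 passed in control (background 35.9%), all lower, and 2 of 8 in hypothyroid cells (background 26.5%), both lower. From day 0 to day 5 the size factor was −0.83 (control) and −0.84 (hypothyroid) on the log2 scale, and relative to it the counts changed. In control 6 of 6 members were then past 2-fold, all higher. In hypothyroid cells 4 were past 2-fold higher, *Dll1* (2.39), *Notch1* (2.22), *Notch2* (3.09) and *Hes1* (2.52), and 1 lower, *Heyl* (0.492), while *Jag1* (0.590) no longer passed.

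Myeloid cells carried *Jag1*, *Notch2* and *Notch1*, and their *Jag1* was higher at day 14 than at day 5 in both diets. *Jag1* stood at 46.6 and 168 CPM in control and at 39.3 and 110 CPM in hypothyroid myeloid cells at days 5 and 14. Both day 14 libraries lay above both day 5 libraries, with ratios of 3.61 (2.62 to 4.96) and 2.80 (2.21 to 3.54). Thinned shares with a *Jag1* UMI were 6.91% and 16.7% in control and 5.15% and 11.4% in hypothyroid cells. FAP markers in these cells summed to 213 and 841 CPM in control and to 282 and 275 CPM in hypothyroid libraries, with 8 of 8 seen in each. The markers of the classes richest in *Jag1* were higher at day 14, with mural markers at 4.52 and 118 CPM in control and at 11.3 and 90.4 CPM in hypothyroid myeloid cells and endothelial markers at 59.2 and 72.8 CPM and at 17.5 and 83.9 CPM. Their part in *Jag1* was not tested. *Fos* was at 132 and 643 CPM in control myeloid cells and at 248 and 551 CPM in their hypothyroid counterparts, and its part was not tested. *Notch2* stood at 78.7 and 108 CPM in control and at 91.8 and 75.5 CPM in hypothyroid cells, and *Notch1* at 40.7 and 62.8 CPM and at 56.6 and 59.7 CPM, all within 2-fold. Between diets 0 of 4 members passed 2-fold at day 5 (28.0% of all genes tested) and 0 of 3 at day 14 (15.8%). From day 5 to day 14, 2 of 4 passed in control (background 30.0%), *Jag1* and *Hes1*, and 1 of 4 in hypothyroid cells (background 15.7%), *Jag1*. Uninjured muscle gave only 3 and 8 myeloid cells and was not compared. T or NK cells kept *Notch1* at 72.8 to 112 CPM in the 4 libraries of days 5 and 14.

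**Figure D4:**
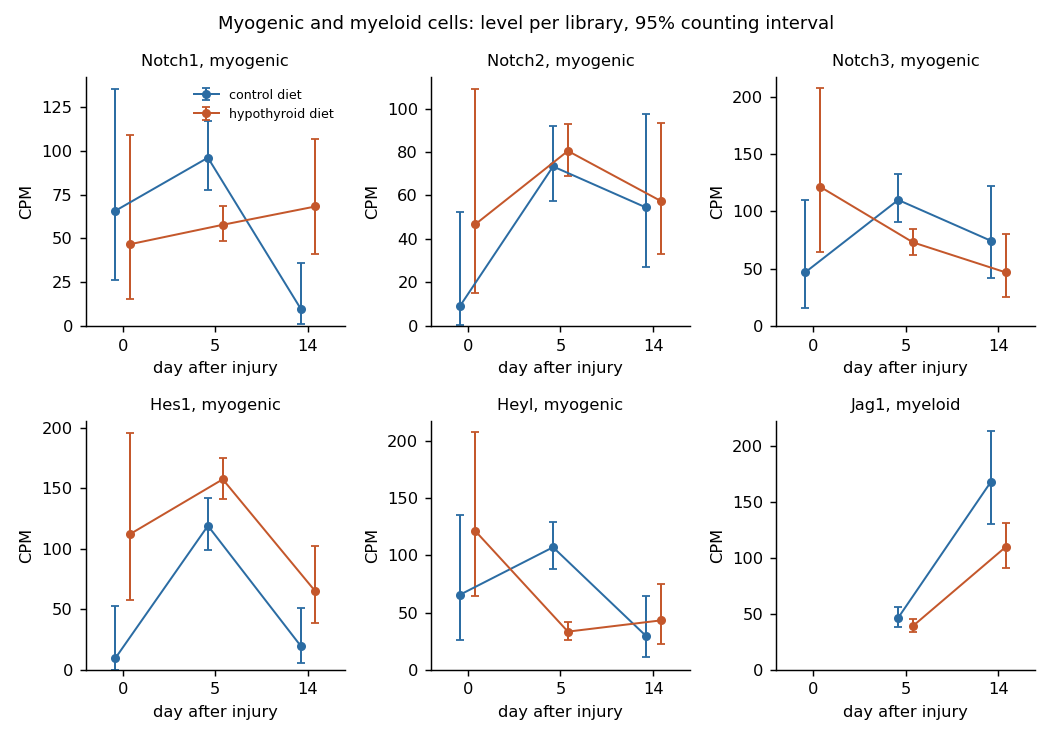
Level (CPM, y axes from 0) of 5 genes in myogenic cells and of *Jag1* in myeloid cells by day after injury and diet, for libraries with at least 20 cells. Points are single libraries and bars are 95% counting intervals. *Heyl* at day 5 is 107 CPM in control against 33.4 CPM in hypothyroid myogenic cells, and myeloid *Jag1* is higher at day 14 in both diets.

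Over all classes and days, 15 of 72 member readings passed 2-fold between diets, 5 of them higher and 10 lower in hypothyroid muscle. The share of all genes past 2-fold ran from 7.86% to 30.9% in these comparisons. Relative to the size factors 18 passed, 7 higher and 11 lower. Of the 15, 1 of 5 at day 0, 4 of 4 at day 5 and 6 of 6 at day 14 had an interval that left out 1.

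**Figure D5:**
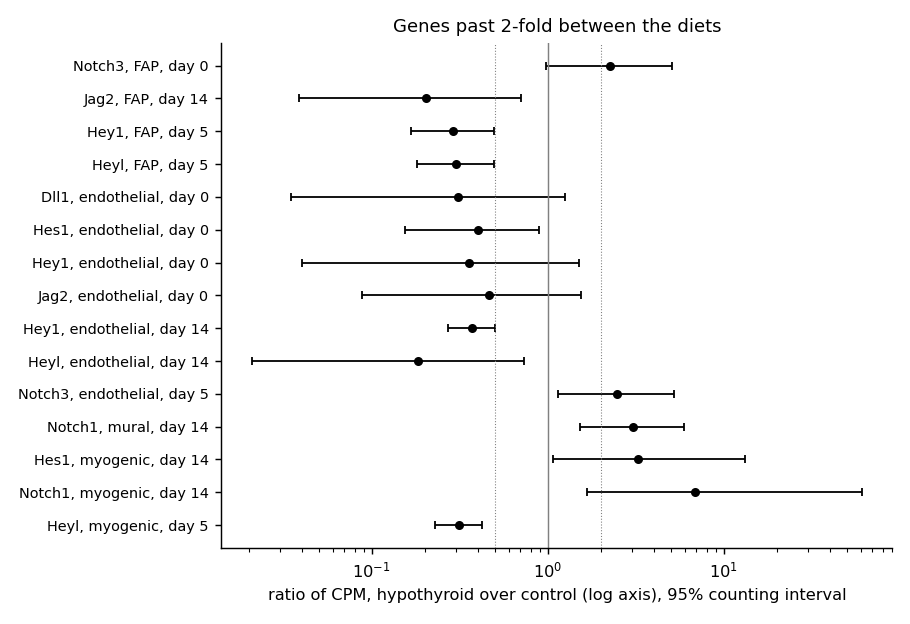
Ratio of CPM, hypothyroid over control, for the 15 gene, class and day readings past 2-fold (log axis, points with 95% counting intervals). The solid line marks 1 and dotted lines mark 2-fold. *Hey1* in endothelial cells at day 14 (0.372) and *Heyl* in myogenic cells at day 5 (0.312) have the narrowest intervals.

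Of 47 other genes of the pathway on a list set by name, 43 were listed in the files. *Dlk1*, a ligand-like protein of fetal and regenerating tissue, gave the largest reading in FAPs. It stood at 15.5, 51.4 and 72.3 CPM in control and at 11.2, 125 and 720 CPM in hypothyroid FAPs at days 0, 5 and 14. Hypothyroid over control ratios were 2.44 (2.16 to 2.76) at day 5 and 9.95 (9.22 to 10.7) at day 14. Among the other pathway genes in FAPs, 2 of 38 passed 2-fold at day 0 (7.86% of all genes tested), 7 of 40 at day 5 (13.8%) and 2 of 39 at day 14 (9.37%), where the further one was *Nrarp*, a feedback inhibitor of Notch, at 2.29 and 0.469 CPM. At day 5 in FAPs 6 of the 7 were lower in hypothyroid cells, among them *Neurl1b* (ratio 0.226), *Neurl3* (0.312) and *Neurl1a* (0.339), which belong to a family of ubiquitin ligases acting on ligands. Relative to the size factor 3 of these 6, the *Neurl* genes, stayed past 2-fold. At day 0 the members of the list past 2-fold in FAPs were *Neurl3* (4.33, 1.71 to 11.5) and *Neurl1a* (2.80, 1.25 to 6.22), higher in hypothyroid cells where they were lower at day 5. In endothelial cells 3 of 10 passed at day 0 (background 29.7%), 6 of 31 at day 5 (16.6%) and 3 of 40 at day 14 (9.94%), counts near the background. They included *Furin*, which cuts the receptor before it reaches the surface (3.05), and the coactivator *Ep300* (0.223, on 2 hypothyroid UMIs) at day 0 and *Mfap2* (0.282, on 4 hypothyroid UMIs) at day 14. *Nrarp* there stood at 267, 29.7 and 96.1 CPM in control and at 112, 63.8 and 56.1 CPM in hypothyroid libraries, highest in uninjured muscle in each diet as *Dll4* was. The uninjured hypothyroid value comes from a pool of 27 cells and 62710 UMIs of all genes, so it rests on few *Nrarp* UMIs. In endothelial cells at day 5, *Maml1*, a coactivator of the nuclear complex, stood at 0.298 times control, *Spen*, a corepressor, at 0.365 and *Rbpj* itself at 0.479, on 4 to 11 hypothyroid UMIs each, while *Nrarp* stood at 2.15. Mural *Nrarp* at day 14 stood at 190 CPM in control against 16.1 CPM in hypothyroid cells, on 56 and 1 UMIs, and *Rbpj* at 2.65 times control on 18 and 10 UMIs.

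In myeloid cells at day 5, 14 of 35 other pathway genes passed 2-fold, 11 of them lower in hypothyroid cells, where 28.0% of all genes tested passed. *Poglut1*, which adds glucose to Notch receptors, stood at 0.155 times control (0.104 to 0.228), *Spen* at 0.394 (0.329 to 0.472), *Itch*, a ubiquitin ligase, at 0.398 (0.323 to 0.490) and *Tle3*, a corepressor, at 0.406 (0.352 to 0.467). *Rbpj* stood at 425 and 362 CPM in control and at 181 and 209 CPM in hypothyroid myeloid cells at days 5 and 14, so both control libraries lay above both hypothyroid ones. The size factor in the day 5 comparison was −0.41 on the log2 scale, and relative to it 1 of the 11 lower genes, *Poglut1* (0.207), stayed past 2-fold and *Rbpj* stood at 0.568. In myogenic cells 5 of 30 passed at day 5, all lower in hypothyroid cells, against a background of 16.2%. Relative to the size factor 1 of the 5, *Neurl1a* (0.452), stayed past 2-fold. They included *Neurl1a* (0.355), *Maml1* (0.426), *Psen2* (0.449), a subunit of the receptor-cutting protease, and *Mib1* (0.485), the ligase that acts on ligands in the sending cell. At day 14, 1 of 12 passed in myogenic cells (background 14.7%), *Snw1*, a cofactor of the complex (0.400, 0.240 to 0.652), and 3 of 24 in myeloid cells (15.8%), of which *Lfng*, a glycosyltransferase that modifies receptors, had an interval that left out 1 (0.313, 0.150 to 0.642). Between days, *Tle4*, a corepressor, was lower at day 5 than at day 0 in FAPs of both diets, with ratios of 0.228 (0.166 to 0.308) in control and 0.124 (0.0927 to 0.166) in hypothyroid cells. *Mfap2*, a matrix protein that can bind Jagged1, was higher at day 5, with ratios of 3.80 (3.18 to 4.58) and 4.98 (3.78 to 6.72).

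The genes whose levels were most like each member over 39 pools of a class in a library with at least 20 cells are given as Pearson r on log2(CPM + 1), with no p. The pools share libraries and classes and are not independent. *Dll4* was most like *Aqp7* (0.97), *Ccm2l* (0.96) and *Nos3* (0.95), and *Jag2* most like *Cracr2b* (0.88), *Palmd* (0.87) and *Plvap* (0.86). *Dll1* was most like *Gata2* (0.81), *Arhgef5* (0.80) and *Bik* (0.80). *Jag1* was most like *Itpripl2* (0.87), *Wdfy3* (0.86) and *Fos* (0.86). *Notch3* was most like *Itga7* (0.86), *Gjc1* (0.85) and *Acta2* (0.83), and *Heyl* like *Rem1* (0.84), *Gjc1* (0.81) and *Snai2* (0.79), so the pair shared *Gjc1*. *Hes1* was most like *Yap1* (0.91), *Dab2ip* (0.91) and *Emp2* (0.90), and *Hey1* like *Eda2r* (0.86), *Efna1* (0.84) and *Tspan7* (0.83). *Notch1* and *Notch2* had weaker nearest genes, *Irf1* (0.75), *Crim1* (0.73) and *Podxl* (0.72) for *Notch1* and *Washc4* (0.75), *Derl1* (0.74) and *Sft2d1* (0.72) for *Notch2*.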

How the data were processed

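Libraries were prepared from dissociated TAM with 10x 3′ v3 chemistry. In Partek Flow, the authors ran the Cell Ranger aligner against mm39, removed cells by UMIs, genes and mitochondrial share, and deposited log2(CPM + 1) values per cell. The members and gene lists were chosen with earlier results of these data known, and the scoring rule of the gates was set after the data were seen.

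UMI counts were recovered by setting 1 UMI to the commonest nonzero value of a cell. Of 39334018 values, 99.934% came out whole (tolerance 0.1). Only the first alphabetical run of columns of each file was used, 11207 of 20269 cells, and whether it belongs to the labelled condition could not be checked. A cell entered a class when its marker score was at least 1.5 times the next and at least 2 markers were seen. Myocytes were cells with at least 10% of UMIs from 8 sarcomere genes. No doublet caller was run, and cells with mixed scores stayed ungated. Libraries held 528 to 3294 cells. With 1 library a group, no differential test was run, and a Poisson model over cells was not used. Ratios and tests were checked on simulated data. All 10 members are named, other pathway genes are named when past 2-fold with an interval that left out 1, at most 4 a comparison. *Dll3*, *Dlk2*, *Hes5* and *Hey2* were not analysed here, and 1 promoter sequence is not reported here. Python 3.11.15, numpy 2.4.6, scipy 1.17.1, pandas 2.3.3 and statsmodels 0.14.6 were used. Alternatives were all columns, a stricter gate, means over cells, another UMI recovery, a pseudocount of 10 CPM, median-of-ratios scaling, no UMI filter, a fold of 1.5 and leaving out each library.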

Additional observations from a re-analysis of the deposited data

Results flagged for a closer look

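In 5 cases the ratio left 1 in opposite directions on different days or in the diets, by 95% counting intervals. None of these differences was tested, since each diet and day is 1 library. In FAPs, hypothyroid over control *Hes1* was 1.5 at day 0 and 1.18 at day 5 but 0.769 at day 14. In endothelial cells it was 0.404 at day 0, on 7 hypothyroid UMIs, and 1.42 and 1.15 at days 5 and 14. With means over cells the day 0 ratio was 1.22, which removes that opposition. Endothelial *Notch3* was 2.47 at day 5 and 0.542 at day 14, and mural markers in the same cells summed to 662 (control) and 1954 CPM (hypothyroid) at day 5 and to 2534 and 1622 CPM at day 14, so they were higher in the same library each time. Within capillary cells the *Notch3* ratio was 1.335 at day 5, on 12 and 5 UMIs, with an interval that included 1 (0.369 to 4.07). At day 14 it was 0.5541 (0.3355 to 0.8845). Of the 14 hypothyroid day 5 *Notch3* UMIs, 7 came from 4 arterial cells. Myogenic *Notch1* was 0.601 at day 5 and 6.89 at day 14, the latter on 2 control UMIs. Relative to the size factors these ratios were 0.766 and 7.81. In FAPs, day 14 over day 5 *Hey1* was 0.457 in control and 1.87 in hypothyroid libraries, on 24 to 40 UMIs a library.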

How the results depend on the processing

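Pairing the diets by day gives 3 pairs, for which the smallest p of an exact test is 0.25, so no such test was run. Of 30 class comparisons, 0 passed adjusted p = 0.05, also with a pseudocount of 10 CPM, with means over cells and with the other UMI recovery (exact permutation test, 15 to 18 at an unadjusted p under 0.05). With all columns, which mix libraries, 21 passed. With the stricter gate 7 of the 10 that still had 6 libraries passed, with fewer tests to adjust for. Comparisons with 1 direction in all libraries numbered 16, and 16 to 20 without 1 library. No class difference named in the text changed direction. Readings past 2-fold between diets numbered 15, and 9 with the stricter gate, 27 with the other UMI recovery, 45 with no UMI filter and 32 at a fold of 1.5. From day 0 to day 5 they numbered 22, and 13 with all columns and 34 with no filter. From day 5 to day 14 they numbered 21, and 12 with all columns, 35 with no filter and 34 at a fold of 1.5. With all columns 4 ratios reversed: endothelial *Hey1* between diets at day 0 (2.71) and from day 0 to day 5 in hypothyroid muscle (0.518), endothelial *Notch3* between diets at day 5 (0.599) and myogenic *Jag1* from day 5 to day 14 in control (1.15). With means over cells, 3 reversed: endothelial *Hes1* between diets at day 0 (1.22) and from day 0 to day 5 in hypothyroid muscle (0.991), and the same myogenic *Jag1* ratio (1.04). The cause was not tested. Median-of-ratios scaling moved the split of higher to lower calls from day 0 to day 5 from 13 and 9 to 19 and 7. Pools of 21 to 40 cells limit the myogenic and uninjured endothelial values.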
